A study of Mus musculus with 9 samples.

Results

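The mitochondrial genome of the mouse carries 37 annotated genes, and all 37 were among the 54532 gene IDs counted in liver RNA of 9 mice. They were chosen by their GENCODE M21 symbols, which begin with mt-, and comprise 13 mRNAs, 22 tRNAs and 2 rRNAs. The study used male mice of the C57BL/6 background, all ApoE-/- and so lacking apolipoprotein E, with 3 livers per group. The HFD + IgG1 group (replicates 5, 6 and 7) was fed a high-fat diet from 4 weeks of age for 20 weeks (4700 kcal/kg; fat gave 41% of calories, carbohydrate 43% and protein 17%). After 1 week on chow it received 3 mg of recombinant human IgG1 into the peritoneum at 25, 26 and 27 weeks of age and was killed at 29 weeks. The HFD + PBS group (replicates 3, 4 and 6) had the same diet and schedule with PBS in place of the antibody. For the normal diet group (replicates 4, 5 and 6) the labels give neither injections nor the age at death. Within each group the livers were picked after Oil Red O staining and a triglyceride measurement, so lipid content bore on which mice are represented. The antibody's target is not named, and 1 of the labels of each of HFD + IgG1 6 and 7 reads IgG2 or IgG3, whereas the titles and the design place both in the IgG1 group.

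Mitochondrial DNA is transcribed from both of its strands into long precursors, which are cut mostly at the tRNAs that lie between the other genes. The mRNAs encode core subunits of respiratory complexes I, III, IV and V, and the rRNAs and tRNAs serve the mitochondrial ribosome that translates them. All other proteins of the organelle, among them the remaining subunits, complex II, the polymerase, the processing enzymes and the ribosomal proteins, are encoded in the nucleus. Liver is rich in mitochondria, which burn fatty acids and carry part of the urea cycle.

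Libraries held 16215194 to 18538463 counts. Of these libraries 3 were at odds with their labels. HFD + IgG1 5 had 235888 counts of Apoe, the gene that should be lost, against 225 to 1655 in the other 8. HFD + PBS 6 and normal diet 5 had 10970 and 17065 counts of Xist, the RNA of the inactive X chromosome of females, and 0 counts of Y-linked genes, whereas the other 7 had at most 4 counts of Xist and 2837 to 3385 Y-linked counts. Results are therefore also given without these 3 libraries, called doubtful below. The hepatocyte markers Alb and Apoa1 were abundant in all 9 libraries. Of 8 skeletal muscle markers 4 were at 0 in every library (Ckm, Myh4, Myl1 and Tnnc2). Levels are given as CPM, counts per 1000000 counts of the library, scaled with edgeR's TMM factors. Of 8 pancreatic acinar markers 4 were at 0 in every library, and the list summed to 6.47 to 21.8 CPM in HFD + IgG1 livers, 3.97 to 9.03 CPM in HFD + PBS livers and 6.41 to 10.07 CPM in normal diet livers, most of it Cela1. Of 4 brown fat markers, Ucp1 was at 0 in all libraries but HFD + PBS 3, with 0.044 CPM there. Elovl3, which liver also makes, had 467 and 469 CPM in HFD + IgG1 5 and 7 and 295 and 558 CPM in normal diet 4 and 6, but at most 1.18 CPM in HFD + IgG1 6, the HFD + PBS livers and normal diet 5.

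The tRNA genes that the results turn on are those of the light-strand transcript with the most counts. Their sequences from the GENCODE M21 transcripts (GRCm38, the build also called mm10) are printed 5′ to 3′ as DNA, with the anticodon in capitals, to show how short the counted targets are. mt-Ty, at chrM:5260-5326 on the minus strand, carries tyrosine. mt-Tc, at chrM:5192-5257, and mt-Tn, at chrM:5089-5159, lie beside it on the same strand and carry cysteine and asparagine. mt-Te, at chrM:14071-14139, and mt-Tp, at chrM:15356-15422, also on the minus strand, carry glutamate and proline and stand on either side of mt-Cytb.
mt-Ty: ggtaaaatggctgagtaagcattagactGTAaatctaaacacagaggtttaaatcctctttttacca
mt-Tc: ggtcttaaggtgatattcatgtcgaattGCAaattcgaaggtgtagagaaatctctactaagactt
mt-Tn: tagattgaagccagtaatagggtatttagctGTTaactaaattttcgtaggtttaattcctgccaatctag
mt-Te: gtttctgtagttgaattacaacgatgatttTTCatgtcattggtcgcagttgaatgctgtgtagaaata
mt-Tp: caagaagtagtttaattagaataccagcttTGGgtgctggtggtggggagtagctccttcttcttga
These 5 targets span 66 to 71 bases. No source used here says whether the counting used strand, so reads of these genes cannot be told apart from reads of the opposite transcript over the same bases. Reads of uncut precursors cannot be told apart from reads of mature tRNA either.

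Levels of the members spanned a wide range, and position in the genome, not only the class of RNA, went with it. Levels per length are given as CPM per kb, that is CPM scaled with TMM factors and divided by gene length, averaged over 9 libraries. mt-Co1, the catalytic subunit of complex IV, was highest at 11892 CPM per kb, followed by mt-Cytb of complex III at 6265. Then came mt-Nd1, mt-Nd2, mt-Nd5, mt-Nd4 and mt-Nd6, all of complex I, at 4394, 3904, 2442, 2357 and 1941. In single libraries mt-Nd5 ran from 1705 to 3665 CPM per kb and mt-Nd4 from 1367 to 4310, so the order of these neighbours lay within the spread. The other 6 mRNAs stood far below, with a median of 69.4 CPM per kb against 3904 for the 7 just named, a 56.2-fold difference of medians. They were mt-Atp6 and mt-Atp8 of complex V, mt-Co2 and mt-Co3 of complex IV, and mt-Nd3 and mt-Nd4l of complex I. mt-Atp6 had 104 CPM per kb and mt-Atp8 4.996, and the other 4 lay between.

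These 6 mRNAs lie next to one another, and the nuclear genome holds a copy of that stretch. On chromosome 1, 7 annotated pseudogenes at chr1:24611535-24616197 (GRCm38, 4.663 kb) repeat it in the same gene order. mt-Co2 was 100% identical to Gm28661 over 99.6% of its bases, mt-Atp6 to Gm10925 over 99.6%, mt-Co3 to Gm28437 over 99.9% and mt-Nd4l to Gm10222 over 99.0%. mt-Nd3 differed from Gm28438 by 1 substitution in 345 bases, T3C, with mt-Nd3's base first and positions counted from its first base. The first 33 bases of both are shown because they hold the only difference in the 345 bases compared, with the differing base in capitals; mt-Nd3 is at chrM:9459-9491 on the plus strand and Gm28438 at chr1:24613087-24613119 on the minus strand.
mt-Nd3: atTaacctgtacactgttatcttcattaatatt
Gm28438: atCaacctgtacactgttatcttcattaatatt
Of all 50-base windows of mt-Co2, 100% were found letter for letter in another annotated transcript, and of those of mt-Atp6, mt-Co3, mt-Nd3 and mt-Nd4l 99.5%, 99.9%, 98.0% and 98.8%. mt-Nd4 and mt-Co1 were shared in part, with 62.2% and 51.1% of windows, and mt-Nd2 and mt-Nd5 with 8.19% and 7.61%. mt-Nd1, mt-Nd6, mt-Cytb and the tRNAs shared none, and mt-Rnr2 1.04%. mt-Atp8 also shared none with an annotated transcript, but it lies in a gap of 233 bases between the copied genes that has the same length on both chromosomes. The chromosome 1 pseudogenes themselves held 1874 to 4301 counts per library. How the authors' counting treated reads with more than 1 place in the genome is not given, so the levels of these 6 mRNAs, and in part those of mt-Nd4 and mt-Co1, are uncertain.

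**Figure D1:**
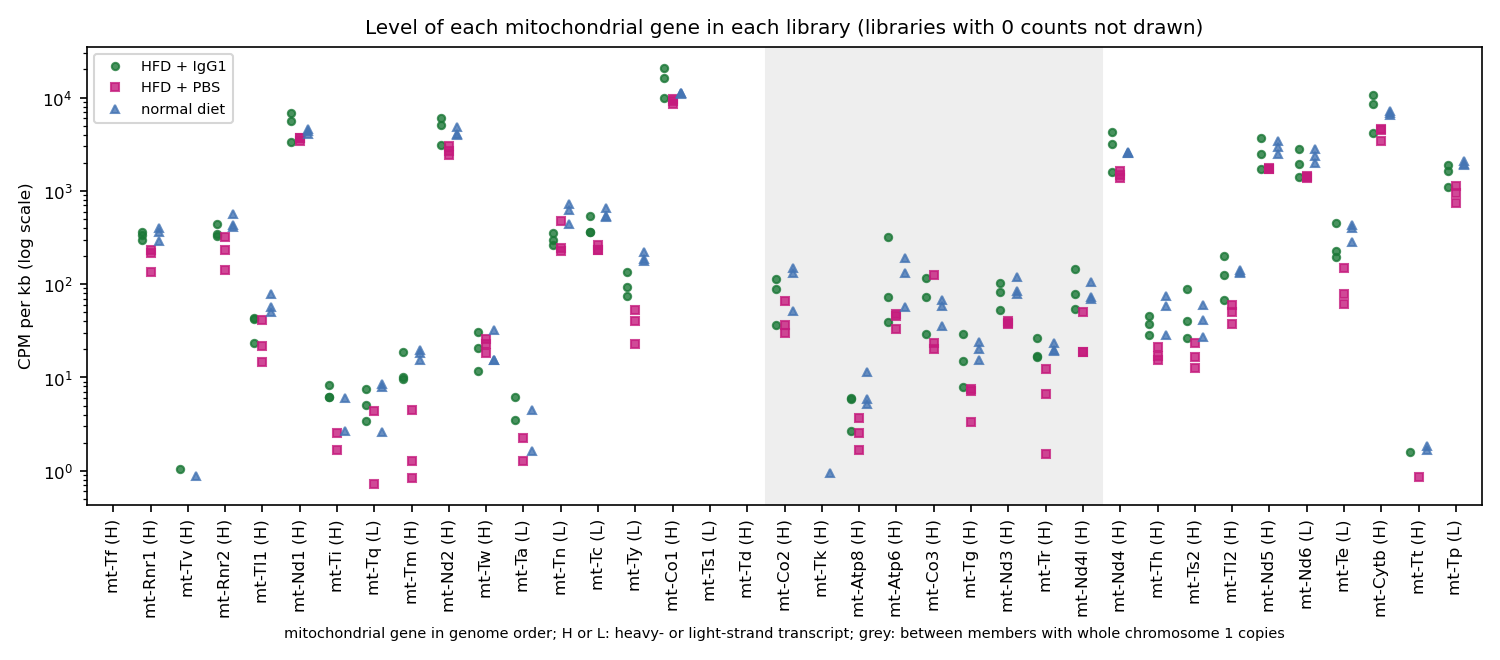
Level of each of the 37 mitochondrial genes in each of 9 libraries, in CPM per kb on a log axis, in genome order, with the strand of the transcript in brackets; libraries with 0 counts are not drawn. The 6 mRNAs in the grey stretch, which has a copy on chromosome 1, had a median of 69.4 CPM per kb against 3904 for the other 7.

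Among the tRNAs, most counts came from a few genes of 1 strand. The 8 tRNAs of the light-strand transcript held 90.2% of all tRNA counts and the 14 of the heavy-strand transcript the rest. mt-Tp alone held 49.6% of them, at 1484 CPM per kb. mt-Tc, mt-Tn, mt-Te and mt-Ty followed at 410, 404, 253 and 111, and mt-Tl2, at 105, was the highest on the heavy strand and close to mt-Ty. The other 3 light-strand tRNAs, mt-Tq, mt-Ta and mt-Ts1, had 4.43, 2.14 and 0 CPM per kb, so a place on the light strand did not by itself go with a high level. mt-Tc and mt-Tn did not differ beyond their spread. Only 13 of 22 tRNAs passed the filter on low counts, and the other 9 had at most 10 counts in any library. Of these 9, mt-Tf, mt-Ts1 and mt-Td had 0 counts in all 9 libraries, which allows up to 3 counts in each, or 0.162 to 0.185 CPM before TMM scaling. mt-Tk had 1 count in all, mt-Tv at most 1, mt-Tt at most 2, mt-Ta at most 6, mt-Ti at most 8 and mt-Tq at most 10. mt-Rnr2 and mt-Rnr1, the large and small ribosomal RNAs, had 357 and 291 CPM per kb, below 7 of the mRNAs. Whether rRNA was depleted or polyadenylated RNA selected is not stated.

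HFD + PBS against normal diet, the first comparison, set mice given the high-fat diet and PBS beside mice on a normal diet, both without the antibody. Injections and age at death are not given for the normal diet mice, so diet cannot be told apart from these. Mitochondrial transcripts of all 3 classes were lower in HFD + PBS livers. The median log2 fold change was -0.78 over 13 mRNAs, -0.93 over 2 rRNAs and -1.44 over 13 tRNAs, against -0.0028 over all 14763 genes tested. Of 28 members tested, 26 were lower on average. In TMM-scaled CPM the libraries of 24 did not overlap, all lower, whereas 15.3% of all genes tested did so in that direction. As unscaled shares of the library's counts, mt-Co1, mt-Nd1, mt-Rnr1, mt-Atp6 and mt-Ts2 did overlap, so their separation depended on the scaling. The values of all these genes are relative to the other RNA of the same liver, and fewer cells of a type and less RNA per cell cannot be told apart.

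No member passed edgeR's quasi-likelihood test at an adjusted p of 0.05 in this comparison, nor did any gene (0% called). At an unadjusted p under 0.05, 22 of 28 members were lower and 0 higher, against 11.4% of all genes lower and 9.41% higher. The members with the lowest adjusted p, 0.0627, were mt-Ty and mt-Tc, and no gene of the 14763 had a lower one. DESeq2 called 12 members, all lower (3 mRNAs, 2 rRNAs and 7 tRNAs), where it called 4.42% of all genes lower and 3.6% higher, and limma-voom called 0. Without HFD + IgG1 6, a library that is in neither group but shares the estimate of the spread, edgeR called 7 members, all lower, where it then called 2.14% of genes lower and 1.65% higher. With the 6 libraries compared alone it called 6 members (0.637% of genes lower), and with no filter on low counts also 6 (0.748% of genes lower).

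The gene for the tyrosine tRNA had the smallest p of all members. mt-Ty had 3.53, 1.54 and 2.68 CPM in HFD + PBS livers, from 80, 27 and 52 counts, against 11.97, 12.47 and 14.69 CPM in normal diet livers, from 196, 224 and 245 counts. The groups stood far apart, with a log2 fold change of -2.32 ± 0.33 (SE; adjusted p = 0.0627 by edgeR). mt-Tc had 17.5, 15.3 and 15.4 CPM in HFD + PBS livers against 34.6, 42.9 and 35.2 CPM in normal diet livers. Both groups were tight and apart, with a log2 fold change of -1.23 ± 0.18 (SE; adjusted p = 0.0627 by edgeR). When HFD + IgG1 5, HFD + PBS 6 and normal diet 5 were left out, the 2 fold changes were -2.35 and -1.06, with edgeR adjusted p of 0.153 each.

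mt-Tp, the most counted tRNA, had 50.1, 75.2 and 63.5 CPM in HFD + PBS livers against 128, 139 and 131 CPM in normal diet livers, a log2 fold change of -1.07 (SE 0.22). mt-Te had 10.29, 4.23 and 5.47 CPM against 19.4, 29.8 and 27.5 CPM in normal diet livers, a log2 fold change of -1.93 (SE 0.41). Neither overlapped. mt-Tn did, since HFD + PBS 6, with 33.8 CPM, stood above the lowest normal diet liver. Its other 2 HFD + PBS livers had 16.1 and 17.2 CPM, and the normal diet livers had 43.8, 50.9 and 31.4 CPM. The log2 fold change of mt-Tn was -0.91 (SE 0.30).

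**Figure D2:**
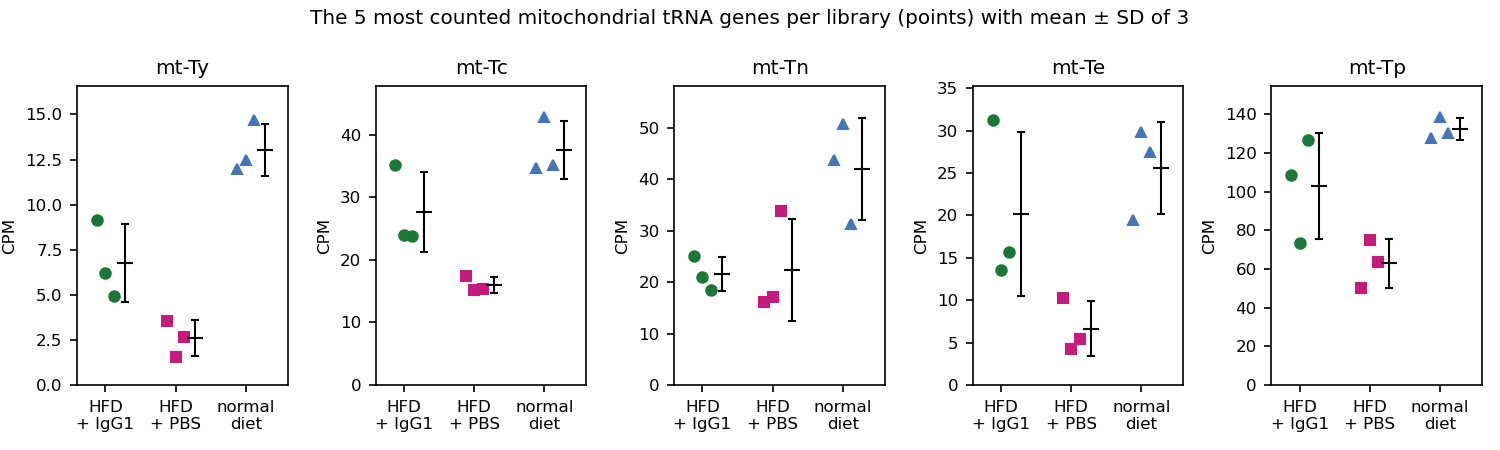
TMM-scaled CPM of the 5 most counted mitochondrial tRNA genes in each library (points), with mean ± SD of 3. HFD + PBS livers were below all normal diet livers for mt-Ty, mt-Tc, mt-Te and mt-Tp, and HFD + IgG1 livers were below them for mt-Ty, mt-Tn and mt-Tp.

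The heavy-strand tRNAs rested on few counts. mt-Tl2, which carries leucine, had 96, 47 and 70 counts in HFD + PBS livers against 152, 179 and 159 in normal diet livers, a log2 fold change of -1.44 (SE 0.35). mt-Tm, which carries methionine and starts translation, had 2, 1 and 6 counts against 22, 19 and 21, a log2 fold change of -2.95 (SE 0.65). mt-Tl1, the other leucine tRNA, had 37, 19 and 60 counts in HFD + PBS livers against 97, 67 and 72 in normal diet livers, a log2 fold change of -1.26. mt-Th, for histidine, had 32, 18 and 22 counts against 64, 89 and 32 in normal diet livers, a log2 fold change of -1.58. None of these 4 overlapped in CPM. mt-Ts2, for serine, had 31, 13 and 19 counts in HFD + PBS livers against 40, 64 and 27 in normal diet livers, a log2 fold change of -1.29. mt-Tr, for arginine, had 19, 8 and 2 counts against 26, 24 and 22 in normal diet livers, and mt-Tg, for glycine, 11, 4 and 10 against 17, 29 and 23, with log2 fold changes of -1.57 and -1.68. The CPM of these 3 did not overlap either. mt-Tw, for tryptophan, was the exception among the tRNAs, with 35, 30 and 24 counts in HFD + PBS livers, 17, 39 and 17 in normal diet livers and a log2 fold change of 0.085 (SE 0.47).

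Both rRNAs were lower. mt-Rnr2 had 369, 225 and 505 CPM in HFD + PBS livers against 893, 678 and 643 CPM in normal diet livers, a log2 fold change of -1.01 ± 0.29 (SE; adjusted p = 0.125 by edgeR). mt-Rnr1 had 219, 128 and 206 CPM against 380, 345 and 276 CPM in normal diet livers, a log2 fold change of -0.85 ± 0.23 (SE; adjusted p = 0.110 by edgeR). HFD + PBS 4 was the lowest library for both.

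The 7 highly counted mRNAs were all lower in TMM-scaled CPM, without overlap, but by less. For mt-Co1 and mt-Nd1 this separation depended on the scaling. As shares of all counts both were higher in HFD + PBS 3 than in any normal diet liver. HFD + PBS 3 had 319661 and 78928 of 17941915 counts, and normal diet 5, the highest of its group, 306539 and 79131 of 18226378. mt-Co1 had 14115, 14742 and 13154 CPM in HFD + PBS livers against 16742, 17062 and 17408 CPM in normal diet livers, a log2 fold change of -0.29 ± 0.31 (SE; adjusted p = 0.627 by edgeR). mt-Nd1 had 3485, 3496 and 3292 CPM against 4198, 4404 and 3892 CPM in normal diet livers, a log2 fold change of -0.28 (SE 0.28). These 2 mRNAs had the smallest differences of the 7, close to their standard errors. mt-Nd2 had 2747, 2533 and 3112 CPM against 4207, 4103 and 5016 CPM in normal diet livers, and mt-Nd4 had 2246, 1883 and 2044 CPM against 3483, 3490 and 3604 CPM. mt-Nd5 had 3130, 3111 and 3219 CPM against 5431, 6273 and 4578 CPM in normal diet livers, and mt-Nd6, the only mRNA of the light-strand transcript, had 709.7, 731 and 748 CPM against 1211, 1466 and 1036 CPM. Together with mt-Cytb, at 5199, 3910 and 5153 CPM against 7803, 7344 and 8278 CPM in normal diet livers, these 5 mRNAs had log2 fold changes of -0.78 to -0.67. SEs of the 5 lay between 0.26 and 0.34, and edgeR's adjusted p between 0.164 and 0.258.

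The 6 mRNAs of the copied stretch had a median log2 fold change of -1.40, against -0.72 for the 7 others, and were more variable between livers. mt-Nd3 was the tightest, with 13.9, 12.9 and 13.4 CPM in HFD + PBS livers against 29.1, 41.1 and 27.3 CPM in normal diet livers, a log2 fold change of -1.27 ± 0.25 (SE; adjusted p = 0.0780 by edgeR). mt-Nd4l had 14.97, 5.55 and 5.52 CPM against 31.5, 20.8 and 21.9 CPM in normal diet livers, a log2 fold change of -1.50 (SE 0.47) that was -2.20 with the counts of its chromosome 1 copy added. mt-Atp8 had 17, 6 and 10 counts against 38, 19 and 20 in normal diet livers, a log2 fold change of -1.48 (SE 0.53). For these 3 and for mt-Atp6 the groups did not overlap. mt-Atp6 had 31.3, 22.4 and 32.8 CPM against 128, 38.7 and 90.2 CPM in normal diet livers, a log2 fold change of -1.57 (SE 0.77). mt-Co2 overlapped, with 45.6, 20.6 and 25.0 CPM against 90.7, 35.7 and 102 CPM in normal diet livers and a log2 fold change of -1.32 (SE 0.52). mt-Co3 did not differ beyond its spread, with 97.5, 18.4 and 15.9 CPM in HFD + PBS livers, 28.2, 46.2 and 52.7 CPM in normal diet livers and a log2 fold change of 0.054 (SE 0.77). Its value rested on HFD + PBS 3: without that library it was -1.28, and with the counts of the chromosome 1 copies added to their mitochondrial genes it was -0.30. One copy, Gm10222, had 1303 counts in normal diet 4 and 59 to 168 in the other libraries, at the same sequence as mt-Nd4l.

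**Figure D3:**
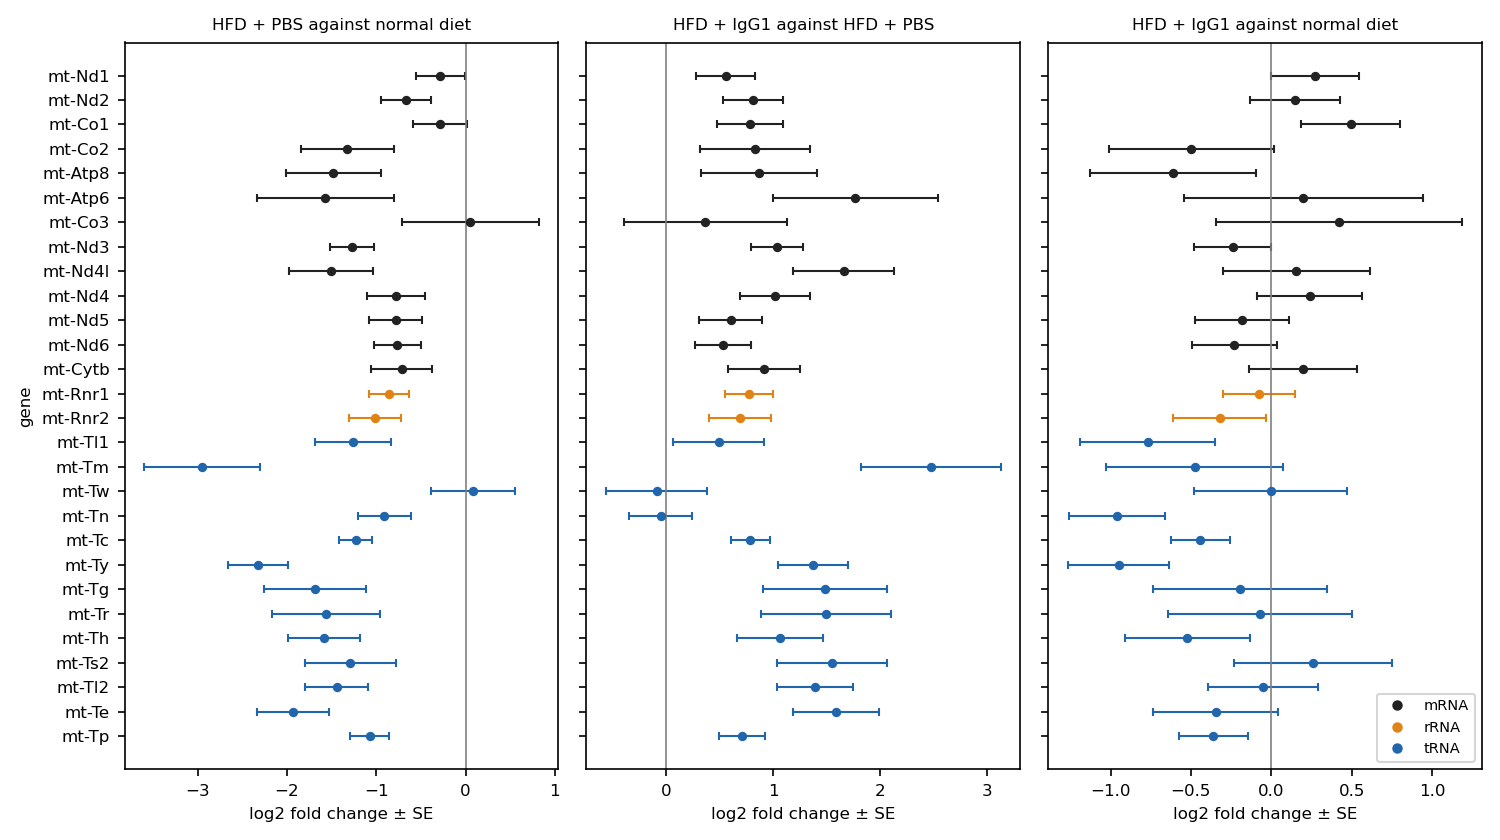
edgeR log2 fold change ± SE of the 28 mitochondrial genes tested in each of 3 comparisons, in genome order within class (mRNA black, rRNA orange, tRNA blue); the x axes differ. In HFD + PBS against normal diet 26 of 28 are below 0, and in HFD + IgG1 against HFD + PBS 26 of 28 are above 0.

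Shares of all counts show how far the scaling bears on this. The 13 mRNAs together took 4.02%, 2.88% and 3.40% of all counts in HFD + PBS livers against 4.21%, 4.37% and 4.26% in normal diet livers (counting error at most 0.0117 percentage points, 95% Wilson interval). The groups did not overlap, and the ratio of means was 0.80 (two-sided exact permutation test p = 0.1, the smallest that 3 against 3 allows, 0.3 adjusted over 3 comparisons). As a log2 difference this was -0.33 on shares and -0.50 on TMM-scaled CPM, both smaller than the median of -0.78 over the 13 genes, and mt-Co1, one of the mRNAs that differed least, held 38.5% to 48.4% of the mRNA counts. The tRNAs took 0.0139%, 0.0115% and 0.0146% of counts in HFD + PBS livers against 0.0257%, 0.0300% and 0.0254% in normal diet livers, a ratio of means of 0.49 (two-sided exact permutation test p = 0.1).

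Within the mitochondrial counts, tRNA was lower relative to mRNA in HFD + PBS livers, on a ratio that does not depend on library scaling. Per 1000 mitochondrial mRNA counts there were 3.45, 3.99 and 4.28 tRNA counts in HFD + PBS livers against 6.11, 6.86 and 5.96 in normal diet livers. The groups were apart, with a log2 difference of -0.69 (two-sided exact permutation test p = 0.1, 0.15 adjusted over 3 comparisons). Without mt-Tp, the tRNA with the most counts, the log2 difference was -0.83, for mt-Ty and mt-Tc alone -0.94, and without the 3 doubtful libraries -0.70. Light-strand tRNAs averaged 3.58 ± 0.44 per 1000 mRNA counts in HFD + PBS livers and 5.71 ± 0.44 in normal diet livers (SD, n = 3 each). Heavy-strand tRNAs averaged 0.33 ± 0.055 in HFD + PBS livers and 0.59 ± 0.068 in normal diet livers, so both strands showed the lower ratio. rRNA per 1000 mRNA counts overlapped, at 18.5, 11.6 and 23.1 in HFD + PBS livers and 29.3, 23.1 and 20.8 in normal diet livers. The share of mt-Co1 in the mRNA counts ran the other way, with 44.3%, 48.4% and 42.7% in HFD + PBS livers against 38.6%, 38.5% and 39.5% in normal diet livers, without overlap.

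**Figure D4:**
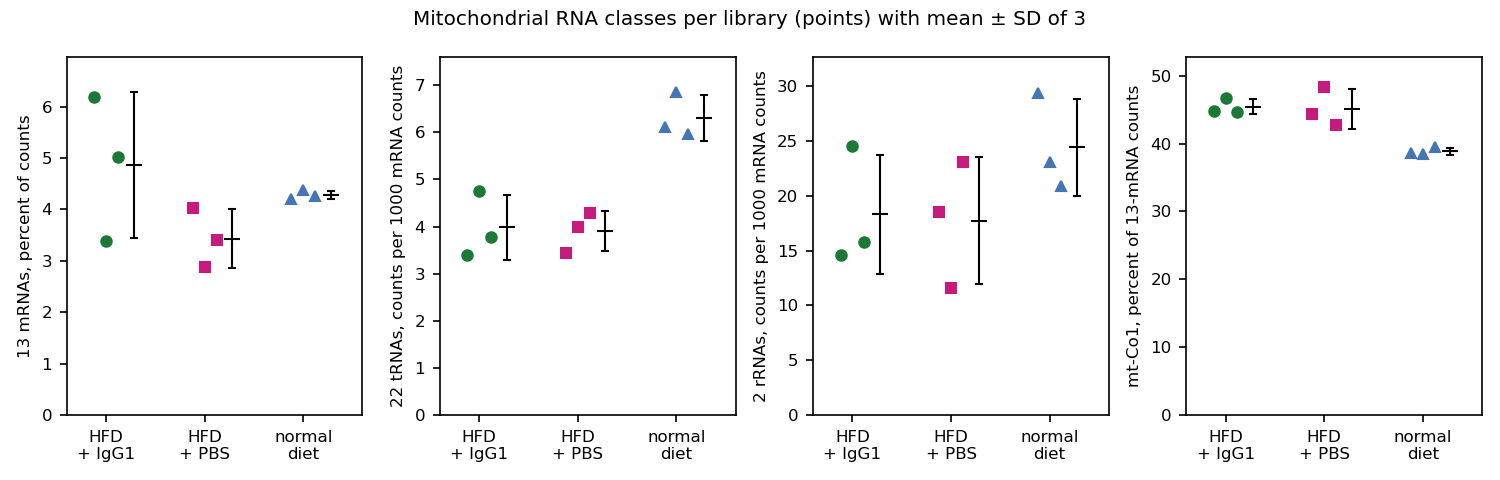
Left to right, the share of the 13 mRNAs in all counts, tRNA and rRNA counts per 1000 mitochondrial mRNA counts, and the share of mt-Co1 in the mRNA counts, per library (points) with mean ± SD of 3. The 6 high-fat diet livers had 3.40 to 4.76 tRNA counts per 1000 mRNA counts and the 3 normal diet livers 5.96 to 6.86.

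HFD + IgG1 against HFD + PBS, the second comparison, addressed what the antibody did in mice fed the high-fat diet. It shares the HFD + PBS libraries with the first, so the directions of the 2 are not independent. All 3 classes were higher in HFD + IgG1 livers, with a median log2 fold change of 0.83 over 13 mRNAs, 0.73 over 2 rRNAs and 1.37 over 13 tRNAs, against 0.037 over all genes tested. Of 28 members, 26 were higher on average, and 15 did so without overlap in TMM-scaled CPM, where 15.3% of all genes did. As unscaled shares of the library's counts, mt-Co1, mt-Nd2, mt-Nd4l, mt-Rnr2, mt-Tc, mt-Tl2, mt-Ts2, mt-Tr and mt-Tg of these did overlap. Their separation thus depended on the scaling. edgeR called 0 members and 0% of genes (lowest adjusted p 0.140). At an unadjusted p under 0.05, 18 members were higher and 0 lower, against 12.6% of all genes higher and 11.6% lower. DESeq2 called 13 members, all higher, where it called 3.82% of genes higher and 4.75% lower, and limma-voom called 0. Without HFD + IgG1 6, whose mitochondrial mRNA share was the lowest of its group, edgeR called 13 members, all higher, where it then called 7.12% of genes higher and 8.37% lower. Without HFD + IgG1 5, the library with Apoe counts, the medians were 0.47 for mRNAs and 0.86 for tRNAs, and without all 3 doubtful libraries they were 0.46 and 0.81.

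HFD + IgG1 livers differed widely from one another, and most mRNAs followed one order. mt-Co1 had 32162, 15263 and 24709 CPM in HFD + IgG1 livers against 14115, 14742 and 13154 CPM in HFD + PBS livers, a log2 fold change of 0.78 ± 0.31 (SE; adjusted p = 0.173 by edgeR). HFD + IgG1 5 stood highest and HFD + IgG1 6 barely above the HFD + PBS livers. mt-Cytb had 12207, 4821 and 9786 CPM against 5199, 3910 and 5153 CPM in HFD + PBS livers, and mt-Nd4 had 5939, 2207 and 4332 CPM against 2246, 1883 and 2044 CPM. Their log2 fold changes were 0.91 and 1.02, and for both HFD + IgG1 6 lay inside the range of HFD + PBS. mt-Nd2 had 6291, 3182 and 5276 CPM in HFD + IgG1 livers against 2747, 2533 and 3112 CPM in HFD + PBS livers. Its log2 fold change was 0.81, without overlap in TMM-scaled CPM. mt-Nd1, mt-Nd5 and mt-Nd6, at log2 fold changes of 0.55, 0.60 and 0.53, overlapped too: HFD + IgG1 6 had 3215, 3129 and 724 CPM, the other 2 HFD + IgG1 livers 5393 and 6473, 4531 and 6685, and 998 and 1442 CPM.

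In the copied stretch, mt-Nd3 had 35.7, 18.4 and 28.4 CPM in HFD + IgG1 livers against 13.9, 12.9 and 13.4 CPM in HFD + PBS livers, a log2 fold change of 1.03 ± 0.24 (SE; adjusted p = 0.140 by edgeR). mt-Nd4l had 43.0, 23.5 and 16.2 CPM against 14.97, 5.55 and 5.52 CPM in HFD + PBS livers, a log2 fold change of 1.66 (SE 0.47). In TMM-scaled CPM these 2 did not overlap and the other 4 did. For mt-Nd4l this depended on the scaling: HFD + IgG1 7 had 269 of 18209121 counts and HFD + PBS 3 had 339 of 17941915. mt-Atp6 was highest in HFD + IgG1 5, with 219, 26.6 and 49.9 CPM and a log2 fold change of 1.77 (SE 0.77) that was 0.36 without that library. mt-Co2, at 77.0, 24.7 and 60.3 CPM, and mt-Atp8, at 17, 23 and 9 counts, had log2 fold changes of 0.83 and 0.87 with SEs of 0.52 and 0.54. mt-Co3, at 90.8, 22.7 and 56.9 CPM in HFD + IgG1 livers, had a log2 fold change of 0.37 (SE 0.77), and of -0.60 without the 3 doubtful libraries.

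The rRNAs were higher without overlap in TMM-scaled CPM and with less spread. mt-Rnr1 had 343, 284 and 320.4 CPM in HFD + IgG1 livers against 219, 128 and 206 CPM in HFD + PBS livers, a log2 fold change of 0.77 (SE 0.23). mt-Rnr2 had 705, 517 and 549.7 CPM against 369, 225 and 505 CPM in HFD + PBS livers, a log2 fold change of 0.69 (SE 0.29). For mt-Rnr2 the gap between the groups was narrow and depended on the scaling: HFD + IgG1 7 had 9104 of 18209121 counts and HFD + PBS 6 had 9792 of 17556558.

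mt-Ty had 9.13, 6.20 and 4.95 CPM in HFD + IgG1 livers, from 128, 116 and 82 counts, against 3.53, 1.54 and 2.68 CPM in HFD + PBS livers, a log2 fold change of 1.37 ± 0.33 (SE; adjusted p = 0.140 by edgeR). mt-Tc had 35.1, 24.1 and 23.8 CPM against 17.5, 15.3 and 15.4 CPM in HFD + PBS livers, a log2 fold change of 0.78 ± 0.18 (SE; adjusted p = 0.140 by edgeR). Both were apart from HFD + PBS in TMM-scaled CPM, and both lay between it and normal diet on average. For mt-Tc the separation depended on the scaling, since HFD + IgG1 7 had 395 of 18209121 counts and HFD + PBS 3 had 396 of 17941915. As unscaled shares the groups were only just apart for mt-Ty. mt-Te had 31.2, 13.6 and 15.6 CPM in HFD + IgG1 livers and a log2 fold change of 1.59 (SE 0.40), again without overlap. mt-Tp, at 109, 73.3 and 127 CPM, overlapped HFD + PBS at 1 liver, with a log2 fold change of 0.71 (SE 0.22). mt-Tn stood apart from the other abundant tRNAs, with 25.2, 21.1 and 18.5 CPM in HFD + IgG1 livers against 16.1, 17.2 and 33.8 CPM in HFD + PBS livers and a log2 fold change of -0.051 (SE 0.30).

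Of the heavy-strand tRNAs, mt-Tl2 had 197, 90 and 149 counts in HFD + IgG1 livers against 96, 47 and 70 in HFD + PBS livers, a log2 fold change of 1.39 (SE 0.35). mt-Tm had 18, 13 and 11 counts against 2, 1 and 6 in HFD + PBS livers, a log2 fold change of 2.47 (SE 0.65). mt-Th, mt-Ts2, mt-Tr and mt-Tg were higher without overlap in CPM, with log2 fold changes of 1.06, 1.55, 1.496 and 1.49. For mt-Ts2, mt-Tr and mt-Tg, but not for mt-Th, the groups overlapped as unscaled shares, so that separation depended on the scaling. In HFD + IgG1 livers mt-Th had 43, 36 and 42 counts and mt-Ts2 73, 45 and 26. mt-Tr had 25, 21 and 19 counts there and mt-Tg 28, 10 and 17. mt-Tl1 overlapped, with 46, 59 and 29 counts and a log2 fold change of 0.49 (SE 0.43), and so did mt-Tw, with 29, 26 and 13 counts.

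The ratio of tRNA to mRNA counts differed between the high-fat diet groups by less than the spread of its values. It was 3.40, 4.76 and 3.79 per 1000 mRNA counts in HFD + IgG1 livers against 3.45, 3.99 and 4.28 in HFD + PBS livers, a log2 difference of 0.019 with full overlap (two-sided exact permutation test p = 1). The share of mt-Co1 in the mRNA counts overlapped as well, at 44.9%, 46.7% and 44.7% in HFD + IgG1 livers and 44.3%, 48.4% and 42.7% in HFD + PBS livers. The 13 mRNAs took 6.19%, 3.38% and 5.02% of all counts in HFD + IgG1 livers, which overlapped the HFD + PBS livers, with a log2 difference of 0.47 (two-sided exact permutation test p = 0.3, 0.45 adjusted over 3 comparisons). On TMM-scaled CPM the groups did not overlap, with a log2 difference of 0.70 (p = 0.1 in the same exact permutation test), so the separation depended on the scaling. mt-Nd6 per 1000 mRNA counts was lower, at 20.1, 22.2 and 18.1 in HFD + IgG1 livers against 22.3, 23.96 and 24.3 in HFD + PBS livers, apart by a small margin.

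HFD + IgG1 against normal diet, the third comparison, shares libraries with both others and shows where antibody-treated livers stood relative to mice never fed the high-fat diet. mRNAs had a median log2 fold change of 0.16, rRNAs of -0.20 and tRNAs of -0.36. Without HFD + IgG1 5 the median of the mRNAs was -0.32, so its sign rested on that library. edgeR called 0 members and 0% of genes, DESeq2 and limma-voom called 0 members, and at an unadjusted p under 0.05 edgeR had 3 members lower, all tRNAs, against 3.21% of genes lower and 3.83% higher. These 3 were mt-Tn, mt-Ty and mt-Tc, at log2 fold changes of -0.96 (SE 0.30), -0.95 (SE 0.32) and -0.44 (SE 0.18), with a lowest adjusted p of 0.586. The libraries of 4 members did not overlap, all tRNAs and all lower, where 6.41% of genes did so and 5.54% were higher without overlap: mt-Tn, mt-Ty, mt-Tp and mt-Tl1. mt-Co1 had a log2 fold change of 0.49 (SE 0.31), mt-Nd1 of 0.27 (SE 0.28), mt-Rnr2 of -0.32 (SE 0.29) and mt-Tp of -0.36 (SE 0.22), so these 4 lay on both sides of 0. The mRNAs were split too, with 8 above 0 and 5 below it, the 5 including mt-Nd5 at -0.18 (SE 0.30) and mt-Nd6 at -0.23 (SE 0.26). Both rRNAs and 12 of 13 tRNAs were below 0.

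In this comparison too tRNA was low relative to mRNA. The 3.40, 4.76 and 3.79 tRNA counts per 1000 mRNA counts of HFD + IgG1 livers were all below the 6.11, 6.86 and 5.96 of normal diet livers, with a log2 difference of -0.68 (two-sided exact permutation test p = 0.1, 0.15 adjusted over 3 comparisons). Without the 3 doubtful libraries it was -0.51. Per 1000000 mitochondrial mRNA counts, mt-Ty had 127, 189.8 and 89.6 counts in HFD + IgG1 livers, 111, 50.6 and 87.0 in HFD + PBS livers and 276, 281 and 333 in normal diet livers. mt-Tc had 489.9, 736 and 432 in HFD + IgG1 livers, 549, 501 and 499 in HFD + PBS livers and 798, 967 and 798 in normal diet livers. On this scale all 6 high-fat diet livers were below all 3 normal diet livers for both genes, with or without the antibody. The share of mt-Co1 was higher in the same 6 livers, at 42.7% to 48.4% against 38.5% to 39.5%.

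Across the 28 members, the level over 9 libraries and the log2 fold change went together in HFD + PBS against normal diet, with a Spearman's rho of 0.68 over 28 genes. The members share libraries, precursors and, in part, sequences, and the level was taken from the same libraries, so rho is only a description. Since tRNAs and the mRNAs of the copied stretch are also the members with few counts, class, position and level cannot be told apart over these 28 genes.

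Nuclear genes of the same organelle were set beside them in 10 lists, with 256 genes tested. In HFD + PBS against normal diet their median log2 fold change was -0.048, with 0 called by edgeR. At an unadjusted p under 0.05, 1 was higher (0.39%, against 9.41% of all genes) and 11 were lower (4.30%, against 11.4%), and DESeq2 called 3, all lower (1.17%, against 4.42%). These shares are below those of all genes. The 68 nuclear subunits of complexes I, III, IV and V, whose products assemble with the mitochondrial ones, had a median of -0.034, the 4 subunits of complex II -0.082 and the 78 mitochondrial ribosomal proteins 0.041. No gene of these 3 lists had an unadjusted p under 0.05. Sdha, the flavoprotein of complex II, averaged 304 ± 26.2 CPM in HFD + PBS livers and 391 ± 49.6 CPM in normal diet livers (SD, n = 3 each), at a log2 fold change of -0.36 (SE 0.25). Of the 68 nuclear subunits, 39 were below 0 and 29 above it. Cox5a of complex IV and Atp5g1 of complex V, named for their small p in any comparison, were among the 29, at 0.49 (SE 0.28) and 0.30 (SE 0.26).

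Genes that copy, transcribe, cut and keep mitochondrial RNA or DNA had list medians between -0.19 and -0.022. Polrmt, the mitochondrial RNA polymerase, averaged 16.3 ± 2.61 CPM in HFD + PBS livers and 24.4 ± 5.66 CPM in normal diet livers, a log2 fold change of -0.59 (SE 0.21) without overlap, and Tfam, which packages mitochondrial DNA and starts transcription, was at -0.21 (SE 0.17). Over 9 transcription genes tested the median was -0.047. Elac2, which cuts tRNAs at their 3′ ends, averaged 21.9 ± 2.71 CPM in HFD + PBS livers and 28.6 ± 2.62 CPM in normal diet livers, a log2 fold change of -0.38 (SE 0.17), again without overlap, in a list of 14 with a median of -0.18. Lrpprc, which binds and stabilises mitochondrial mRNA, was at -0.40 (SE 0.20), and its partner Slirp, with under 1 CPM, at -0.36 (SE 0.45). Twnk, the helicase of mitochondrial DNA, was at -0.43 (SE 0.16) in a list of 18 replication genes with a median of -0.19. RNA modification enzymes (22 genes) and mitochondrial aminoacyl-tRNA synthetases (22 genes) had medians of -0.022 and -0.14. At an unadjusted p under 0.05, 1 of the former was higher and 1 lower, and of the latter 0 were higher and 1 lower. Of all genes 9.41% were higher and 11.4% lower.

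Regulators of mitochondrial biogenesis were the nuclear list with the lowest median, -0.24 over 14, with 6 lower and 0 higher at an unadjusted p under 0.05 in HFD + PBS livers (11.4% and 9.41% of all genes) and 3 called lower by DESeq2 (4.42% of all genes). Ppara, the fatty-acid receptor, and Esrrg, an orphan nuclear receptor, had the smallest p of the list. Esrrg averaged 0.256 ± 0.149 CPM in HFD + PBS livers and 2.75 ± 0.543 CPM in normal diet livers, a log2 fold change of -3.40 ± 0.73 (SE; adjusted p = 0.0786 by edgeR), and 2.06 ± 1.46 CPM in HFD + IgG1 livers. Ppara was at -1.65 (SE 0.32) in HFD + PBS against normal diet and at 1.37 (SE 0.31) in HFD + IgG1 against HFD + PBS. Ppargc1a, the coactivator best known for biogenesis, did not differ beyond its spread, at 19.6 ± 19.3 CPM in HFD + PBS livers and 22.9 ± 1.19 CPM in normal diet livers.

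In HFD + IgG1 against HFD + PBS the 256 nuclear genes had a median of 0.26, against 0.037 over all genes tested, with 0 called by edgeR. At an unadjusted p under 0.05, 49 were higher (19.1%, against 12.6% of all genes) and 1 was lower (0.39%, against 11.6%). DESeq2 called 4 higher (1.56%, against 3.82% of all genes) and 1 lower (0.39%, against 4.75%), shares below those of all genes. Nuclear subunits were at a median of 0.32 (64 of 68 positive), complex II at 0.52 (4 of 4) and mitochondrial ribosomal proteins at 0.18 (66 of 78), so the medians of these 3 lists had the same sign as those of the mitochondrial genes. Sdha averaged 508 ± 162 CPM in HFD + IgG1 livers and 304 ± 26.2 CPM in HFD + PBS livers (0.74, SE 0.25), and Sdhb was at 0.60 (SE 0.25). Mrps27 and Mrps7, of the small mitochondrial ribosomal subunit, were at 0.47 (SE 0.14) and 0.60 (SE 0.20), and Hars2 and Nars2, the synthetases for histidine and asparagine, at 0.67 (SE 0.20) and 0.94 (SE 0.31). Polrmt, Tfam, Lrpprc and Elac2 were at 0.55, 0.33, 0.50 and 0.50, with SEs of 0.17 to 0.21, and Twnk at 0.65 (SE 0.16). Pde12, which removes poly(A) tails in mitochondria, was at 0.53 (SE 0.19), while Slirp and Ppargc1a were at -0.058 (SE 0.46) and -0.89 (SE 0.67). Slc25a36, a pyrimidine nucleotide carrier, was the 1 gene lower, at -0.95 (SE 0.28). In HFD + IgG1 against normal diet the medians of nuclear subunits, complex II and mitochondrial ribosomal proteins were also above 0, at 0.31, 0.38 and 0.24. Those of the mitochondrial mRNAs, rRNAs and tRNAs were 0.16, -0.20 and -0.36 there. Against normal diet Rpusd3, a pseudouridine synthase of mitochondria, was at 1.40 (SE 0.40) in HFD + IgG1 livers, Gtpbp3, which modifies mitochondrial tRNA, at 0.51 (SE 0.16) and Ptcd2, of transcript processing, at 0.42 (SE 0.16). None of these passed edgeR's test.

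**Figure D5:**
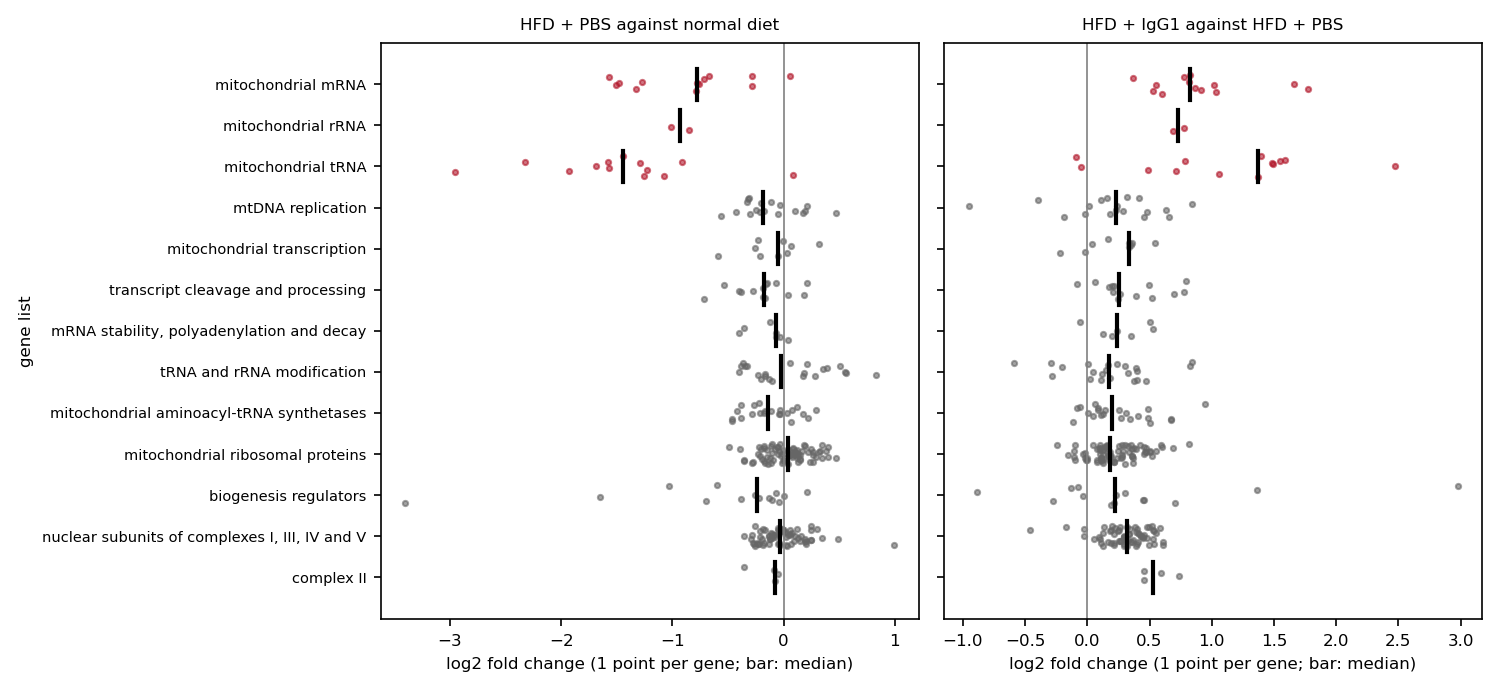
edgeR log2 fold change of each gene tested (points) and median (bar) for the 3 classes of mitochondrial genes (red) and 10 lists of nuclear genes for mitochondria (grey). In HFD + PBS against normal diet the mitochondrial classes have medians of -0.78, -0.93 and -1.44 and the nuclear subunits -0.034.

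Of 3 lists of cell type markers, macrophage markers were the one whose sums in HFD + PBS livers stood apart from both other groups. The 8 hepatocyte markers summed to 86779 to 172563 CPM in HFD + IgG1 livers, 52328 to 88914 CPM in HFD + PBS livers and 79809 to 91527 CPM in normal diet livers, so HFD + PBS overlapped both. The 6 neutrophil markers summed to 12.8 to 468 CPM in HFD + IgG1 livers, 375 to 2939 CPM in HFD + PBS livers and 34.1 to 148 CPM in normal diet livers, where HFD + PBS overlapped HFD + IgG1. The 7 macrophage markers summed to 479.7 to 1342 CPM in HFD + IgG1 livers, 1647 to 1743 CPM in HFD + PBS livers and 985 to 1223 CPM in normal diet livers. HFD + IgG1 6, the liver of its group with the least mitochondrial mRNA, also had the highest neutrophil and macrophage sums and the lowest hepatocyte sum of its group. In the HFD + PBS group the order by mRNA share, which is not TMM-scaled, was the other way round for hepatocytes and neutrophils. HFD + PBS 4, with the lowest mitochondrial mRNA share of all libraries (2.88%), had the highest hepatocyte and lowest neutrophil sum of its group (88914 and 375 CPM). HFD + PBS 3, with the highest share of its group (4.02%), had the lowest hepatocyte and the highest neutrophil sum (52328 and 2939 CPM). The marker sums are TMM-scaled, and on that scale the mRNAs of this group had no single order. mt-Co1 was highest in HFD + PBS 4 (14742 CPM, against 14115 CPM in HFD + PBS 3), whereas mt-Cytb was lowest there (3910 CPM, against 5199 CPM). No marker of these 3 lists was at 0 in every library. The part of cell composition in the differences of mitochondrial RNA was not tested. The 8 markers of muscle, a tissue rich in mitochondria, summed to at most 1.85 CPM in any library.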

How the data were processed

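The authors deposited raw counts, 1 whole number for each Ensembl gene ID and liver. Build mm10 and Bowtie 0.12.2 appear in the submitters' processing notes. Not given in the sources used here are the counting program, its annotation, its use of strand and its treatment of reads with several places in the genome. Per the labels' protocols, 1 µg of Trizol RNA per liver went into a NEBNext Ultra library.

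Groups came from the titles and the series design. Symbols, coordinates and sequences came from GENCODE M21, which named 54409 of 54532 IDs, and copies were found with blastn 2.17.0 in its transcripts. In R 4.3.3, edgeR 4.0.16 was run on all 9 libraries with TMM factors, filterByExpr (minimum count 10, minimum total 15), 3 group means, glmQLFit with robust = TRUE, glmQLFTest (two-sided) and Benjamini-Hochberg adjustment over 14763 genes, threshold 0.05. SEs were taken from the unshrunk log2 fold change and edgeR's F statistic. For members with many counts, precision was limited by the spread between mice (coefficient of variation 0.318) more than by depth, 16215194 to 18538463 counts. For members with few counts, such as mt-Tm with 2, 1 and 6 counts in HFD + PBS livers, depth limited precision as well. Intervals cover counting error only. The workflow was tested on simulated data.

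Alternatives were DESeq2 1.42.0, limma-voom (limma 3.58.1), RLE and upper-quartile factors, scaling on nuclear genes only, no or another filter, robust = FALSE, the 6 libraries compared alone, a replicate block, libraries left out and, added after seeing the data, counts of chromosome 1 copies added to their mitochondrial genes. All 37 members are accounted for, and values per library are given for those passing the filter. Of each nuclear list the 2 genes with the smallest p in any comparison are named, with 7 others whatever their values (Polrmt, Tfam, Lrpprc, Slirp, Elac2, Ppargc1a and Sdha). Members and lists were chosen with earlier results of these data known.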

Additional observations from a re-analysis of the deposited data

How the results depend on the processing

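The number of mitochondrial genes called was 0 in the main edgeR test of each comparison. In HFD + PBS against normal diet it was 12 with DESeq2, 6 when low counts were not filtered and 6 with only the 6 libraries compared, and 0 to 7 with 1 library left out. In HFD + IgG1 against HFD + PBS it was 13 with DESeq2 and 0 to 13 with 1 library left out, and in HFD + IgG1 against normal diet 0 throughout. In all these calls HFD + PBS livers were the lower group. With 1 library left out, the median log2 fold change in HFD + IgG1 against HFD + PBS ran from 0.47 to 1.05 for mRNAs and from 0.86 to 1.53 for tRNAs, and in HFD + IgG1 against normal diet from -0.32 to 0.38 for mRNAs. Without HFD + IgG1 5, HFD + PBS 6 and normal diet 5 these medians were 0.46, 0.81 and -0.29. For mt-Ty and mt-Tc alone the log2 difference in tRNA per mRNA count was -0.94 in HFD + PBS against normal diet, where these 2 had the lowest adjusted p. mt-Co3 changed sign in that comparison with limma-voom (-0.40), with the replicate block (-0.98), with the chromosome 1 copies added (-0.30) and with libraries left out (-1.28 to 0.45), and in HFD + IgG1 against HFD + PBS without the 3 libraries (-0.60) and with libraries left out (-0.19 to 1.70). mt-Tn did in HFD + IgG1 against HFD + PBS with limma-voom (0.021), without the 3 libraries (0.21) and with libraries left out (-0.27 to 0.38), and mt-Tw in HFD + PBS against normal diet with libraries left out (-0.10 to 0.54). The cause of these changes was not tested. RLE factors, upper-quartile factors and scaling on nuclear genes only moved no median across its sign and no count from 0. Same-numbered livers were not more alike than others: deviations from the group means correlated at -0.494 to 0.0069 in 5 same-numbered pairs and -0.347 to 0.425 in 22 other pairs. With 5 such pairs this check cannot exclude a pairing, and the labels do not say what the number marks. A replicate block left the counts of calls at 0, but the main test also called 0, so this count cannot show whether a pairing mattered. Of the 9 tRNAs with at most 10 counts, 6 were tested when low counts were not filtered, with 0 called and 0 at an unadjusted p under 0.05 in any comparison by edgeR, so no difference was detectable at this depth.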
